A study of Mus musculus with 16 samples.

Results

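The genes described here are 32 that encode enzymes and membrane proteins of the lysosome. They were picked by gene symbol from a list of names, and each symbol occurred once among the 54532 genes of the count and FPKM tables. By role they were 8 membrane proteins (Lamp1, Lamp2, Scarb2, Cd63, Laptm5, Mcoln1, Cln3 and Npc1), 10 proteases (Ctsa, Ctsb, Ctsc, Ctsd, Ctsh, Ctsl, Ctss, Ctsz, Napsa and Tpp1), 8 enzymes that break down glycans (Hexa, Galns, Gusb, Glb1, Neu1, Man2b1, Sgsh and Ids) and 6 lipid enzymes and activators (Npc2, Lipa, Asah1, Psap, Gm2a and Ppt1). RNA was sequenced from the whole aorta of 16 male C57BL/6J mice, 4 per group and 1 library per mouse. Sham mice and 5/6 Nx-HPi-Lp mice both ate a diet holding 2% phosphorus and 2.5% protein, so these groups differed by the operation. The 5/6 Nx-HPi-Hp mice ate 2% phosphorus with 18% protein, and the 5/6 Nx-LPi-Lp mice ate 0.3% phosphorus with 2.5% protein. 5/6 Nx mice had the poles of the left kidney ligated and the right kidney removed in a later operation, and the labels give 30 days on the diet. The mice were 12 weeks old at the first operation. No unoperated mice and no sham mice on the other diets were analysed here, so diet could be compared only among nephrectomised mice. The study asked how dietary phosphorus and protein alter the artery wall in mice with reduced kidney function.

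Lysosomes are acid compartments in which hydrolases break down proteins, glycans and lipids taken up from outside or delivered by autophagy. Their membrane carries heavily glycosylated proteins such as Lamp1 and Lamp2, transporters, and the proton pump V-ATPase that keeps the lumen acid. All cells of the artery wall have lysosomes, and macrophages, which clear debris and lipid, have many of them. Transcription factors of the MiT/TFE family activate many lysosomal genes through the CLEAR element, a promoter motif built on CACGTG, and the macrophage factor PU.1 binds motifs with a GAGGAA core.

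Promoter sequence was examined because the members moved unequally, as described after it. Windows of 250 bases before the RefSeq gene start (GRCm38.p6) were searched on both strands. Of the 32 members, 26 had a RefSeq window. The 6 without one were Ctsb, Ctsh, Galns, Npc1, Asah1 and Napsa, so Napsa, which was raised, was not searched. Of the 26, 2 (Scarb2 and Cd63) were left out because the window lay over 1000 bases from the start in the count table. Among the other 24, 6 (25%) held CACGTG, against 6.02% of 32851 promoters searched for the same letters. The members' windows were those nearest the start in the count table. The 32851 were taken without that choice and without regard to expression, so the sets are not alike. These were Lamp1 with 4 copies, Mcoln1 and Ctsd with 2 each, and Ctsl, Glb1 and Sgsh with 1 each. The longer palindrome TCACGTGA, which contains CACGTG, was in 2 of 24 (8.33%, Mcoln1 and Ctsd) against 0.785% of all promoters. GAGGAA was in 10 of 24 (41.7%) against 23.3% of all promoters. Ctsc, Lipa and Gm2a held 2 copies, and Ctss, Laptm5, Lamp2, Glb1, Man2b1, Ids and Psap held 1, so the motif lay before raised members and before members that did not pass, and not before Ctsl, which was raised. These are matches of letters and not measured binding.

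The following 3 windows are shown because they lie before a pair of raised proteases and before Lamp1, whose mean level was lowest in 5/6 Nx-HPi-Hp. Each lies on the + strand and ends at the base before the gene start, at chr3:95526536-95526785 for Ctss, chr7:88277835-88278084 for Ctsc and chr8:13158911-13159160 for Lamp1. Capitals mark GAGGAA or its reverse complement in the first pair and CACGTG in Lamp1.
Ctss: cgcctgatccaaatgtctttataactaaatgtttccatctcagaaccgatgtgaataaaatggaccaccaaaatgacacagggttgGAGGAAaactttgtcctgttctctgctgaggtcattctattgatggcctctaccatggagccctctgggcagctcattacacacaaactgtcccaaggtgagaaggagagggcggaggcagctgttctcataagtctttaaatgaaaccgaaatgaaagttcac
Ctsc: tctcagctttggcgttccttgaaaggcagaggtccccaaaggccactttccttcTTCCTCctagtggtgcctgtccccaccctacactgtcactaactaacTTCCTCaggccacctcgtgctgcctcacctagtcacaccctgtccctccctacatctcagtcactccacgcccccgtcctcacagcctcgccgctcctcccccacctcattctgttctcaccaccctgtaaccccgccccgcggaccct
Lamp1: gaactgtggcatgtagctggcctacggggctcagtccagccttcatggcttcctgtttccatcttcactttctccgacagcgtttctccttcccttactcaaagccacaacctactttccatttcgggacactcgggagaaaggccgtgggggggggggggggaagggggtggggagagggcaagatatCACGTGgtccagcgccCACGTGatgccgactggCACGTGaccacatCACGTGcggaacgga

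In the aorta of 5/6 Nx-HPi-Lp mice a small set of members was raised, led by the proteases Ctss, Napsa, Ctsc and Ctsl and the membrane protein Laptm5, while most of the 32 lay within 2-fold of each other group. Levels are given as FPKM, a fragment count corrected for gene length and library depth, and fold changes come from edgeR's quasi-likelihood test on the counts. Genes were counted as called when their change was 2-fold or more and their p, adjusted by Benjamini-Hochberg over all genes tested, did not exceed 0.05. All 32 members passed the filter on low counts in every comparison. The levels spanned a wide range. Psap, the precursor of the saposins that present sphingolipids to their hydrolases, was highest with a mean of 411 FPKM over the 16 libraries, and Napsa was lowest with 1.06 FPKM. Psap, Ctsd, Ctsb and Ctsz together made up 58.8% of the summed mean FPKM of the 32 members.

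Against Sham, 4 members of 32 were called higher in 5/6 Nx-HPi-Lp mice (Ctss, Napsa, Laptm5 and Ctsc) and 1 lower (Ppt1). Of all 16513 genes tested, 15.0% were called higher and 7.18% lower, so neither count of called members was above the background. By adjusted p alone, 10 members rose and 3 fell (22.7% and 20.2% of all genes). This split became 9 and 6 with counts scaled by library total. Genes passing in either direction were then 7713 of 16513, against 7089 in the main fit. Against 5/6 Nx-HPi-Hp, 6 members were called higher (Ctss, Napsa, Laptm5, Ctsl, Ctsc and Lamp2) and none of the 32 lower, where 5.01% and 3.11% of all genes were called. By adjusted p alone the members were 9 higher and 0 lower (7.09% and 5.95% of all genes). An unadjusted p under 0.05 in either direction was found for 12 of 32 members and 5003 of 16198 genes. DESeq2 also gave 6 members called higher and 0 lower, with 2095 of 18957 genes called. Against 5/6 Nx-LPi-Lp, 5 members were called higher (Ctss, Napsa, Laptm5, Ctsl and Ctsc) and 0 lower, where 7.90% and 3.98% of all genes were called. DESeq2 gave the same counts of members, with 2689 of 20570 genes called. By adjusted p alone in edgeR 8 rose and 1, Mcoln1, fell (11.1% and 8.96% of all genes). In that fit 14 of 32 members and 5808 of 16253 genes had an unadjusted p under 0.05. The 3 comparisons share the 5/6 Nx-HPi-Lp libraries. The same 4 members were called higher in all of them, and 7 were called in at least 1.

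The median log2 fold change of the 32 members was 0.16 against Sham, 0.37 against 5/6 Nx-HPi-Hp and 0.32 against 5/6 Nx-LPi-Lp, and that of all genes tested was -0.0027, 0.01 and -0.02. Fitted values were higher in 5/6 Nx-HPi-Lp for 22, 25 and 25 of 32 members. The first median rested in large part on 1 library, since it was -0.0017 without 5/6 Nx-HPi-Lp replicate 2. The third was 0.111 without that library. By role, the medians in these 3 comparisons, in the same order, were 0.57, 0.46 and 0.25 for proteases, 0.23, 0.33 and 0.40 for glycan enzymes, 0.02, 0.54 and 0.20 for membrane proteins and 0.09, 0.36 and 0.13 for lipid enzymes and activators. With counts scaled by library total instead, the medians against Sham were -0.12 for membrane proteins and -0.05 for lipid enzymes in place of positive values.

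**Figure D1:**
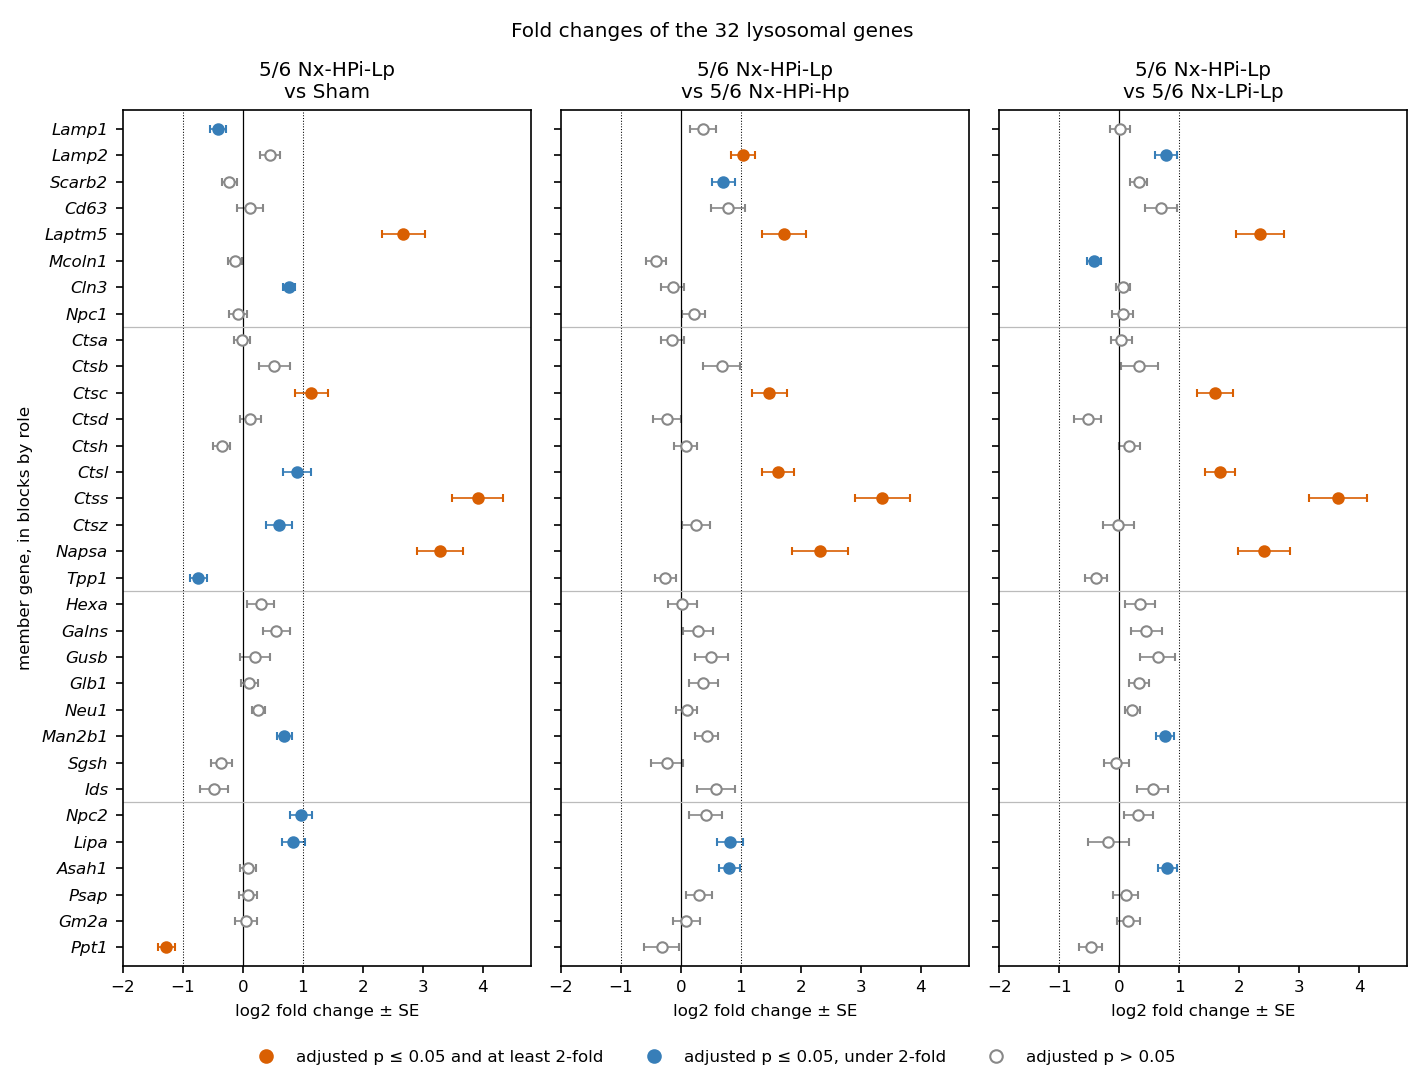
The log2 fold change of each of the 32 lysosomal genes in 5/6 Nx-HPi-Lp mice against 3 groups (Sham at the left, 5/6 Nx-HPi-Hp in the middle, 5/6 Nx-LPi-Lp at the right, n = 4 mice per group), with bars of 1 standard error, orange for called genes, blue for an adjusted p of at most 0.05 with less than a 2-fold change, open points for the rest and dotted lines at -1 and 1. Ctss lies farthest to the right in each panel (3.92, 3.36 and 3.65), and Ppt1 is the 1 gene called lower (-1.28 against Sham).

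Among the proteases, Ctss (cathepsin S, a cysteine protease of antigen-presenting cells that cleaves elastin and the invariant chain) changed most. Its level was 36.6, 171, 99.5 and 75.3 FPKM in the 4 mice of 5/6 Nx-HPi-Lp. It was 13.1, 11.2, 6.32 and 6.57 in 5/6 Nx-HPi-Hp, 6.47, 11.1, 8.79 and 4.40 in 5/6 Nx-LPi-Lp and 6.58, 7.76, 5.80 and 4.59 in Sham. The lowest 5/6 Nx-HPi-Lp mouse was above the highest of all other mice, whose 3 groups overlapped one another. The log2 fold change was 3.92 (SE 0.425, adjusted p = 0.000111) against Sham, 3.36 (SE 0.455, adjusted p = 0.00402) against 5/6 Nx-HPi-Hp and 3.65 (SE 0.480, adjusted p = 0.00222) against 5/6 Nx-LPi-Lp, which is 15.1-fold, 10.2-fold and 12.5-fold. The call held under every alternative tried in all 3 comparisons, with log2 fold changes from 2.93 to 4.21.

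Napsa encodes napsin A, an aspartic protease best known from lung epithelium, where it processes surfactant protein, and from kidney tubule. It was low throughout: 1.82, 4.65, 2.34 and 2.56 FPKM in 5/6 Nx-HPi-Lp, and between 0.173 and 0.858 FPKM in the 12 other mice. The groups did not overlap. Its log2 fold change was 3.29 (SE 0.386, adjusted p = 0.000166) against Sham, 2.32 (SE 0.467, adjusted p = 0.0144) against 5/6 Nx-HPi-Hp and 2.41 (SE 0.430, adjusted p = 0.00653) against 5/6 Nx-LPi-Lp, resting on 11 to 691 counts per library. Lung epithelial transcripts were also higher in 5/6 Nx-HPi-Lp. Only 1 of 5 lung markers passed the filter on low counts in each of the 3 comparisons, and it was called higher. The summed FPKM of 5 lung markers was 15.2, 126, 9.94 and 60.3 in 5/6 Nx-HPi-Lp mice, 0.700 to 4.64 in 5/6 Nx-HPi-Hp, 0.263 to 3.35 in 5/6 Nx-LPi-Lp and 0.393 to 2.19 in Sham, with Sftpd at 0 in the last 2 groups. The sum of 5 kidney tubule markers was 5.56 to 17.9 in 5/6 Nx-HPi-Lp and 0.495 to 2.65 elsewhere, although Umod and Slc34a1, which define the thick ascending limb and proximal tubule, were at 0 in 5/6 Nx-HPi-Lp. These markers did not move together. Against Sham only 2 of the 5 were tested, 1 called higher (log2 fold change 3.66) and 1 called lower (-5.65). Within 5/6 Nx-HPi-Lp the lung sum was lowest in replicate 3 and Napsa in replicate 1, and both were highest in replicate 2. The part of these other tissues in the Napsa difference was not tested.

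Ctsc (cathepsin C, the dipeptidyl peptidase that activates granule serine proteases of leukocytes) stood at 10.3, 30.9, 19.5 and 14 FPKM in 5/6 Nx-HPi-Lp. It was between 6.27 and 7.15 in 5/6 Nx-HPi-Hp, 5.78 and 6.82 in 5/6 Nx-LPi-Lp, and 7.60 and 8.79 in Sham. No other group overlapped 5/6 Nx-HPi-Lp, and Sham lay above the other nephrectomised groups. The log2 fold change was 1.14 (SE 0.280, adjusted p = 0.00876) against Sham, 1.48 (SE 0.295, adjusted p = 0.0141) against 5/6 Nx-HPi-Hp and 1.60 (SE 0.303, adjusted p = 0.0085) against 5/6 Nx-LPi-Lp. The difference from Sham fell under 2-fold without 5/6 Nx-HPi-Lp replicate 2 (0.81) and in limma on log2(FPKM + 1), where it was 0.98.

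Ctsl (cathepsin L, a cysteine endopeptidase of most cells) was at 34.7, 84.4, 53.8 and 47.7 FPKM in 5/6 Nx-HPi-Lp. The other values were 18.4, 16.7, 16.1 and 20.5 in 5/6 Nx-HPi-Hp, 17.0, 18.5, 16.3 and 17.2 in 5/6 Nx-LPi-Lp, and 30.9, 32.1, 26.1 and 26.4 in Sham. Thus Sham sat above the other nephrectomised mice and under the 5/6 Nx-HPi-Lp mice, with no overlap. Its log2 fold change was 1.62 (SE 0.260, adjusted p = 0.00617) against 5/6 Nx-HPi-Hp and 1.68 (SE 0.252, adjusted p = 0.0035) against 5/6 Nx-LPi-Lp. Against Sham it was 0.90 (SE 0.232, adjusted p = 0.0113), under the 2-fold threshold, and reached 1.08 without 5/6 Nx-HPi-Lp replicate 1.

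**Figure D2:**
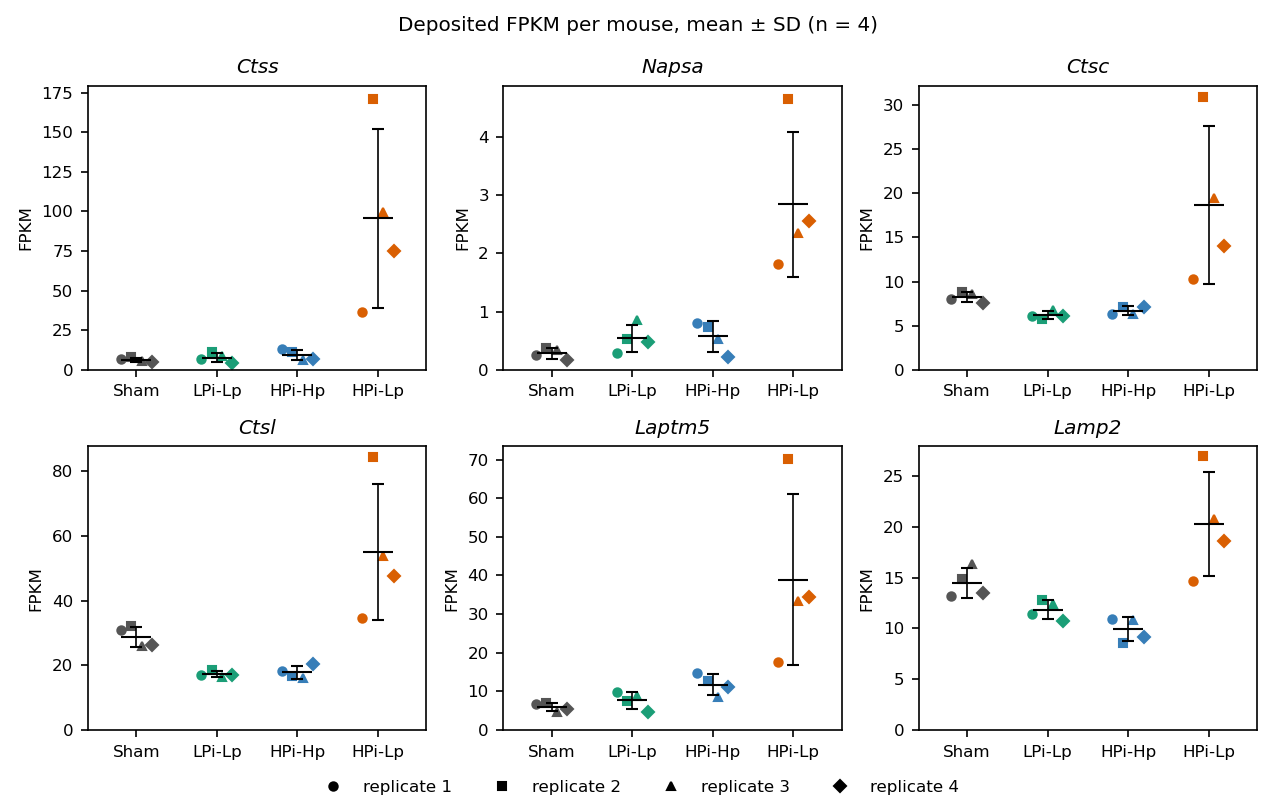
FPKM of Ctss, Napsa, Ctsc, Ctsl, Laptm5 and Lamp2 in each mouse, by group on the x axis, with marker shapes for replicates 1 to 4 and bars for the group mean and SD (n = 4). The 4 mice of 5/6 Nx-HPi-Lp lie above all others for Ctss (36.6 to 171 FPKM against at most 13.1), while their replicate 2 is the highest point in every panel.

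The other proteases went separate ways. Ctsd (cathepsin D, the main lysosomal aspartic protease) was the most abundant, at 193, 383, 310 and 268 FPKM in 5/6 Nx-HPi-Lp, 361, 287, 354 and 349 in 5/6 Nx-HPi-Hp, 482, 373, 431 and 373 in 5/6 Nx-LPi-Lp and 250, 256, 274 and 255 in Sham. The 5/6 Nx-HPi-Lp mice spanned the Sham range, and the other nephrectomised groups lay above Sham. Its log2 fold change in 5/6 Nx-HPi-Lp was 0.13 (adjusted p = 0.607) against Sham, -0.23 (0.533) against 5/6 Nx-HPi-Hp and -0.52 (0.125) against 5/6 Nx-LPi-Lp. Tpp1 (tripeptidyl peptidase 1, deficient in a childhood neuronal ceroid lipofuscinosis) was at 13.4, 21.3, 19.7 and 15.1 FPKM in 5/6 Nx-HPi-Lp, 18.0, 22.6, 20.3 and 22.3 in 5/6 Nx-HPi-Hp, 21.8, 18.7, 24.7 and 26.0 in 5/6 Nx-LPi-Lp and 28.6, 27.3, 30.7 and 27.4 in Sham. All Sham mice were above all nephrectomised mice. It fell against Sham by 0.74 on the log2 scale (SE 0.145, adjusted p = 0.0027), and the differences from 5/6 Nx-HPi-Hp (-0.26) and 5/6 Nx-LPi-Lp (-0.39) did not pass. Ctsz, a carboxypeptidase, rose against Sham by adjusted p alone (log2 fold change 0.60, adjusted p = 0.0459), with overlapping groups. Ctsb, an abundant cysteine protease, ranged from 126 to 346 FPKM in 5/6 Nx-HPi-Lp against 143 to 162 in Sham and did not pass in any of the 3 comparisons (log2 fold changes 0.53, 0.68 and 0.34). The means of Ctsa, the protective protein of Neu1 and Glb1, were 55.9 ± 11.1 FPKM in 5/6 Nx-HPi-Lp and 55.2 ± 1.21 in Sham (SD, n = 4). Those of Ctsh, an aminopeptidase, were 25.3 ± 5.19 and 31.6 ± 3.04 FPKM.

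Among the membrane proteins, Laptm5 (a lysosomal transmembrane protein of blood-derived cells) rose most. It was at 17.7, 70.1, 33.4 and 34.5 FPKM in 5/6 Nx-HPi-Lp, 14.9, 12.6, 8.46 and 11.1 in 5/6 Nx-HPi-Hp, 9.78, 7.51, 8.89 and 4.63 in 5/6 Nx-LPi-Lp and 6.70, 6.94, 4.71 and 5.39 in Sham. All 4 of 5/6 Nx-HPi-Lp were apart from the rest, and all 5/6 Nx-HPi-Hp mice were above all Sham mice. The log2 fold change was 2.68 (SE 0.362, adjusted p = 0.000361) against Sham, 1.72 (SE 0.368, adjusted p = 0.0176) against 5/6 Nx-HPi-Hp and 2.35 (SE 0.404, adjusted p = 0.00566) against 5/6 Nx-LPi-Lp. The second of these lost its call without 5/6 Nx-HPi-Hp replicate 2 (adjusted p = 0.0573).

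Lamp2 (a major membrane glycoprotein needed for fusion with autophagosomes) was at 14.7, 27.0, 20.7 and 18.6 FPKM in 5/6 Nx-HPi-Lp. It was 11.0, 8.60, 10.8 and 9.19 in 5/6 Nx-HPi-Hp, 11.4, 12.8, 12.4 and 10.7 in 5/6 Nx-LPi-Lp and 13.1, 14.8, 16.3 and 13.5 in Sham. The 5/6 Nx-HPi-Lp mice overlapped Sham but not the other nephrectomised mice. Lamp2 was called against 5/6 Nx-HPi-Hp (log2 fold change 1.03, SE 0.199, adjusted p = 0.0125), just past 2-fold, and fell back to 0.87 without 5/6 Nx-HPi-Lp replicate 2, 0.95 without 5/6 Nx-HPi-Hp replicate 2 and 0.94 in limma on log2(FPKM + 1). Against 5/6 Nx-LPi-Lp it was 0.78 (SE 0.188, adjusted p = 0.0206) and against Sham 0.46 (adjusted p = 0.0517).

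Lamp1, its close relative and the most abundant membrane protein of the list, behaved differently. Its levels were 113, 174, 139 and 128 FPKM in 5/6 Nx-HPi-Lp, 121, 77.7, 96.3 and 132 in 5/6 Nx-HPi-Hp, 147, 117, 150 and 135 in 5/6 Nx-LPi-Lp and 179, 194, 183 and 166 in Sham. Sham was highest, overlapped by replicate 2 of 5/6 Nx-HPi-Lp. Lamp1 fell against Sham by 0.41 on the log2 scale (SE 0.136, adjusted p = 0.0328), though the adjusted p was 0.0617 to 0.0981 in 6 of the 8 fits that left out 1 mouse. Its values against 5/6 Nx-HPi-Hp (0.37, adjusted p = 0.277) and 5/6 Nx-LPi-Lp (0.02, adjusted p = 0.962) did not pass. Mcoln1, the calcium channel TRPML1 of the lysosomal membrane, was at 6.13, 4.88, 4.95 and 5.80 FPKM in 5/6 Nx-HPi-Lp, 6.35, 8.44, 8.27 and 5.96 in 5/6 Nx-HPi-Hp, 8.10, 6.78, 7.48 and 6.62 in 5/6 Nx-LPi-Lp and 5.71, 5.13, 6.33 and 6.16 in Sham. All 4 mice of 5/6 Nx-HPi-Lp were lower than every 5/6 Nx-LPi-Lp mouse. They overlapped Sham and 5/6 Nx-HPi-Hp, although 2 lay under the lowest Sham mouse and 3 under the lowest 5/6 Nx-HPi-Hp mouse. Its log2 fold change against 5/6 Nx-LPi-Lp was -0.42 (SE 0.123, adjusted p = 0.0406), with an adjusted p of 0.0527 to 0.117 in 7 of the 8 fits that left out 1 mouse. Those against Sham (-0.13) and 5/6 Nx-HPi-Hp (-0.41, adjusted p = 0.116) did not pass.

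The remaining membrane proteins, chosen for mention after their values were seen, did not move together. Scarb2 (LIMP-2, the receptor that carries glucocerebrosidase to lysosomes) rose against 5/6 Nx-HPi-Hp by adjusted p alone (0.70, SE 0.192, adjusted p = 0.0393), at 24.6 to 32.8 FPKM against 14 to 21.1. Cln3, a membrane protein of the battenin family, rose against Sham (0.77, SE 0.102, adjusted p = 0.000311), at 5.43 to 6.36 FPKM against 3.08 to 3.65. Cd63, a tetraspanin of late endosomes, passed in no comparison of 5/6 Nx-HPi-Lp and spread from 55.2 to 131 FPKM there. Npc1, the cholesterol exporter, had a mean of 3.65 ± 0.811 FPKM in 5/6 Nx-HPi-Lp and 3.79 ± 0.309 in Sham.

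The 8 glycan enzymes, which remove sugars and sulphates from glycoproteins, glycolipids and glycosaminoglycans, gave 0 called genes in each of the 3 comparisons with edgeR. In turn 3, 0 and 2 had an unadjusted p under 0.05, as did 8406 of 16513, 5003 of 16198 and 5808 of 16253 genes. DESeq2 and limma called 0 as well. Hexa (the alpha subunit of beta-hexosaminidase, deficient in Tay-Sachs disease) was the most abundant, at 57.7, 148, 93.1 and 93.4 FPKM in 5/6 Nx-HPi-Lp, 95.6, 103, 90.0 and 96.1 in 5/6 Nx-HPi-Hp, 69.7, 86.5, 71.0 and 82.1 in 5/6 Nx-LPi-Lp and 87.0, 75.4, 74.5 and 75.4 in Sham. The 5/6 Nx-HPi-Lp mice spanned all other groups, and the log2 fold changes of 0.30, 0.03 and 0.35 had adjusted p-values of 0.33, 0.957 and 0.363. Man2b1, the lysosomal alpha-mannosidase, was the 1 glycan enzyme that passed by adjusted p alone. It was at 16.2 to 25.1 FPKM in 5/6 Nx-HPi-Lp, 12.2 to 18.8 in 5/6 Nx-HPi-Hp, 10.7 to 12.5 in 5/6 Nx-LPi-Lp and 11.5 to 12.4 in Sham. The log2 fold change was 0.69 (SE 0.129, adjusted p = 0.00214) against Sham and 0.76 (SE 0.156, adjusted p = 0.011) against 5/6 Nx-LPi-Lp. Mean FPKM in 5/6 Nx-HPi-Lp and in Sham was 14.5 ± 6.38 and 12.4 ± 0.278 for Gusb (beta-glucuronidase), 12.8 ± 0.833 and 10.4 ± 1.34 for the sialidase Neu1, and 9.93 ± 1.94 and 9.05 ± 0.751 for the beta-galactosidase Glb1. For the sulphatases it was 6.76 ± 2.29 and 4.50 ± 0.267 for Galns, and 4.31 ± 1.15 and 5.44 ± 0.291 for Sgsh (SD, n = 4 each). None of these 5 passed in the comparisons of 5/6 Nx-HPi-Lp.

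Of the lipid enzymes and activators, Ppt1 (palmitoyl-protein thioesterase 1, which removes fatty acids from proteins) was the 1 member called lower against Sham. It was at 10.6, 16, 13.9 and 10.4 FPKM in 5/6 Nx-HPi-Lp, 15.7, 13.6, 9.06 and 24.7 in 5/6 Nx-HPi-Hp, 14.8, 15.4, 19.2 and 21.4 in 5/6 Nx-LPi-Lp and 30.1, 30.2, 31.8 and 28.7 in Sham. Every nephrectomised mouse was below every Sham mouse, and the nephrectomised groups overlapped one another. Its log2 fold change against Sham was -1.28 (SE 0.142, adjusted p = 0.000124), and it was -0.32 (adjusted p = 0.479) against 5/6 Nx-HPi-Hp and -0.47 (adjusted p = 0.106) against 5/6 Nx-LPi-Lp. Psap was at 349, 577, 431 and 440 FPKM in 5/6 Nx-HPi-Lp, 393, 305, 375 and 378 in 5/6 Nx-HPi-Hp, 521, 364, 428 and 357 in 5/6 Nx-LPi-Lp and 410, 423, 424 and 396 in Sham. Its groups overlapped in every comparison of 5/6 Nx-HPi-Lp, with log2 fold changes of 0.09, 0.31 and 0.11 that did not pass.

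A further 3 passed by adjusted p alone. Npc2, which hands cholesterol to Npc1, rose against Sham (0.97, SE 0.178, adjusted p = 0.00197), at 40.2 to 77.9 FPKM against 26.8 to 31.3. Lipa, the acid lipase that frees cholesterol from its esters, rose against Sham (0.84, SE 0.185, adjusted p = 0.00509) and 5/6 Nx-HPi-Hp (0.82, SE 0.219, adjusted p = 0.0373), at 18.9 to 33.9 FPKM against 11.9 to 16.6 and 11.8 to 18.2. Asah1, the acid ceramidase, rose against 5/6 Nx-HPi-Hp (0.81, SE 0.174, adjusted p = 0.018) and 5/6 Nx-LPi-Lp (0.80, SE 0.156, adjusted p = 0.00907). Its 21.5 to 31.4 FPKM in 5/6 Nx-HPi-Lp overlapped the 20.4 to 27.0 of Sham. Gm2a, the activator protein for ganglioside breakdown, was at 27.4 ± 7.30 FPKM in 5/6 Nx-HPi-Lp and 25.9 ± 2.23 in Sham and did not pass.

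Several members also separated 5/6 Nx-HPi-Hp or 5/6 Nx-LPi-Lp mice from Sham. All Sham mice ate the HPi-Lp diet, so these comparisons differed in both operation and diet. The shares of operation and diet in them cannot be told apart. In 5/6 Nx-HPi-Hp against Sham, 1 member (Ids) was called lower and 0 higher, where 2.75% and 9.41% of all genes were called. By adjusted p alone 10 members fell and 3 rose (13.9% and 17.5% of all genes). With counts scaled by library total 12 fell and 2 rose, where 5144 of 15882 genes passed in either direction. In 5/6 Nx-LPi-Lp against Sham, 1 member (Lipa) was called higher and 0 lower (8.79% and 2.08% of all genes). By adjusted p alone 10 fell and 6 rose (14.5% and 17.3%). With that scaling 16 fell and 5 rose, where 6649 of 16071 genes passed in either direction. DESeq2 gave 1 member lower and 0 higher in the first comparison and 1 of each in the second. Genes called by DESeq2 there numbered 2558 of 19327 and 2099 of 19027. Both comparisons share the Sham libraries, and the median log2 fold change of the members was -0.11 and -0.04, against 0.02 for all genes in both.

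Ids (iduronate-2-sulphatase, of heparan and dermatan sulphate breakdown) was at 20.7, 22.6, 22.2 and 21.5 FPKM in Sham, 9.997, 10.1, 6.59 and 15.6 in 5/6 Nx-HPi-Hp, 8.54, 9.32, 11.4 and 13.8 in 5/6 Nx-LPi-Lp and 23.2, 10.1, 12.1 and 18.5 in 5/6 Nx-HPi-Lp. Both of the first 2 nephrectomised groups lay below all Sham mice, and the third overlapped them. The log2 fold change was -1.04 (SE 0.222, adjusted p = 0.0115) in 5/6 Nx-HPi-Hp and -0.998 (SE 0.148, adjusted p = 0.00343) in 5/6 Nx-LPi-Lp, the second of which just missed the 2-fold threshold. The -0.48 in 5/6 Nx-HPi-Lp did not pass (adjusted p = 0.128). Summed over 6 sympathetic neuron markers, FPKM by mouse was 763, 37.4, 140 and 596 for 5/6 Nx-HPi-Lp, which ranked them as Ids did. For 5/6 Nx-LPi-Lp it was 39.6, 60.1, 82.1 and 128, again in the order of Ids. The order differed from that of Ids for 5/6 Nx-HPi-Hp (54.8, 184, 63.3 and 189) and Sham (62.3, 53.7, 63.6 and 42.5). Whether neurons had a part in the Ids differences was not tested.

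Scarb2 and Asah1 showed a further arrangement, in which 5/6 Nx-HPi-Lp lay near Sham and the other nephrectomised groups below it. Scarb2 was at 29.2, 35.4, 38.1 and 29.8 FPKM in Sham, 30.5, 32.8, 27.5 and 24.6 in 5/6 Nx-HPi-Lp, 21.1, 14, 14.7 and 20.8 in 5/6 Nx-HPi-Hp and 23.4, 23.0, 25.3 and 20.4 in 5/6 Nx-LPi-Lp. It fell against Sham by 0.91 on the log2 scale (SE 0.185, adjusted p = 0.0105) in 5/6 Nx-HPi-Hp and by 0.51 (SE 0.124, adjusted p = 0.0134) in 5/6 Nx-LPi-Lp. Asah1 was at 24.3, 26.4, 27.0 and 20.4 FPKM in Sham, 24.7, 31.4, 28.3 and 21.5 in 5/6 Nx-HPi-Lp, 14.7, 14.2, 12.9 and 18.4 in 5/6 Nx-HPi-Hp and 13.2, 14.1, 16.8 and 16.6 in 5/6 Nx-LPi-Lp. The last pair of groups lay wholly below Sham, by 0.71 (SE 0.147, adjusted p = 0.0109) and 0.68 (SE 0.126, adjusted p = 0.00488) on the log2 scale as decreases. Ctsl fell in the same pair of groups by 0.70 (SE 0.140, adjusted p = 0.0103) and 0.73 (SE 0.108, adjusted p = 0.00343).

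Cln3 went the other way in all nephrectomised groups. It was at 3.43, 3.08, 3.52 and 3.65 FPKM in Sham, 5.43, 5.96, 6.36 and 6.08 in 5/6 Nx-HPi-Lp, 6.18, 7.75, 8.01 and 4.33 in 5/6 Nx-HPi-Hp and 5.82, 6.20, 5.52 and 5.25 in 5/6 Nx-LPi-Lp, with every nephrectomised mouse above every Sham mouse. Its log2 fold change was 0.93 (SE 0.184, adjusted p = 0.01) in 5/6 Nx-HPi-Hp and 0.75 (SE 0.0978, adjusted p = 0.00291) in 5/6 Nx-LPi-Lp. Ctsd rose in 5/6 Nx-LPi-Lp (0.69, SE 0.124, adjusted p = 0.00435) with no overlap with Sham. Lipa in 5/6 Nx-LPi-Lp was at 45.7, 15.6, 35.5 and 18.2 FPKM, against 12.8, 13.8, 16.6 and 11.9 in Sham, so its call (1.07, SE 0.306, adjusted p = 0.0257) came with overlapping groups and was lost without replicate 1 of 5/6 Nx-LPi-Lp. The summed FPKM of 5 adipocyte markers moved beside it, at 2019, 882, 1101 and 698 in those 5/6 Nx-LPi-Lp mice and 122 to 338 in Sham, with 5 of 5 called higher. That sum also averaged above Sham in the other nephrectomised groups. In 5/6 Nx-HPi-Hp it was 288 to 2018, again with 5 of 5 called higher against Sham, beside a Lipa log2 fold change of 0.05 (adjusted p = 0.843). In 5/6 Nx-HPi-Lp it was 939 to 1601, with 4 of 5 called higher against Sham and 0 of 5 by edgeR against either other diet, where 0 (HPi-Hp) and 1 (LPi-Lp) had an unadjusted p under 0.05. By mouse the sum was 1524, 769, 2018 and 288 in 5/6 Nx-HPi-Hp, beside Lipa at 18.2, 12.0, 15.2 and 11.8 FPKM. In 5/6 Nx-HPi-Lp it was 939, 1057, 1105 and 1601, beside 18.9, 33.9, 27.5 and 20.7. The part of adipocytes in the Lipa differences was not tested.

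**Figure D3:**
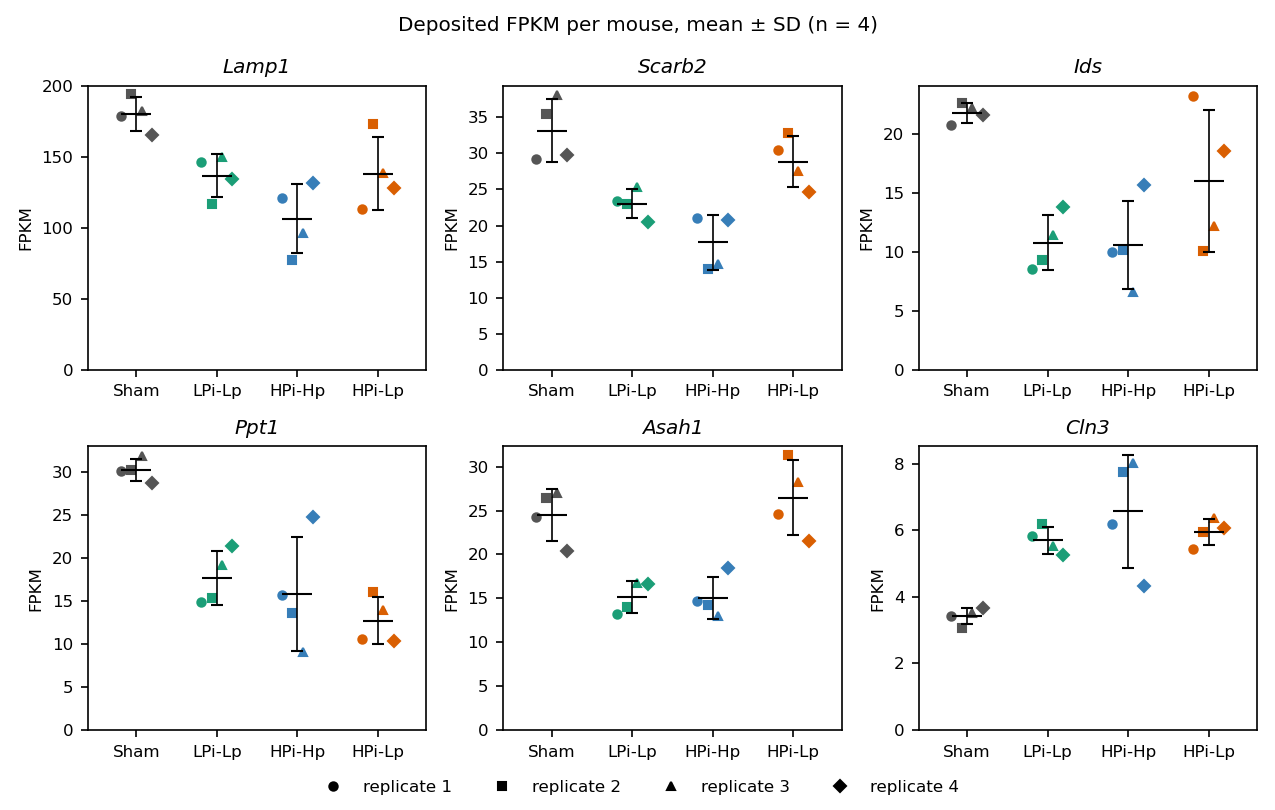
FPKM of Lamp1, Scarb2, Ids, Ppt1, Asah1 and Cln3 in each mouse, by group on the x axis, with marker shapes for replicates 1 to 4 and bars for the group mean and SD (n = 4). Every nephrectomised mouse lies below the Sham mice for Ppt1 (at most 24.7 against at least 28.7 FPKM) and above them for Cln3 (at least 4.33 against at most 3.65).

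Between the diets other than HPi-Lp, no member was called. Against 5/6 Nx-LPi-Lp, 5/6 Nx-HPi-Hp had 0 of 15850 genes at an adjusted p of at most 0.05 in edgeR's quasi-likelihood test (0%), with 1420 genes and 2 members at an unadjusted p under 0.05. DESeq2 called 79 genes and 0 members, and limma called 0 genes with either pseudocount. The 2 members were Laptm5 (log2 fold change 0.60, unadjusted p = 0.0331) and Lipa (-1.01, unadjusted p = 0.012, adjusted p = 0.524).

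The 5/6 Nx-HPi-Lp mice differed widely among themselves. Replicate 2 had the highest FPKM of the 4 for 29 of 32 members and replicate 1 the lowest for 26. The same was not counted over all genes. Library totals of replicates 1 to 4 were 15665005, 57276915, 46499243 and 15013203 counts. Mitochondrially encoded genes took 27.1%, 19.3%, 25.0% and 22.4% of them. The ratio of replicate 2 to replicate 1 had a median of 1.82 over the members and was highest for Ctss (4.67), Laptm5 (3.97) and Ctsc (3.00). It was under 1 for Ids (0.434) and Mcoln1 (0.796). The summed FPKM of the 32 members was 1429, 2863, 2120 and 1902 in these 4 mice, with a mean of 2078 ± 597, against 1625 ± 124 in 5/6 Nx-HPi-Hp, 1848 ± 217 in 5/6 Nx-LPi-Lp and 1704 ± 58.6 in Sham (SD, n = 4 each). The 5/6 Nx-HPi-Lp range thus held the means of all other groups.

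Macrophage and fibroblast markers moved with the raised members. The summed FPKM of Adgre1, Csf1r, Cd14, Mrc1, Fcgr1, C1qa, C1qb, C1qc, Lyz2 and Ms4a7 was 539, 1952, 1151 and 1037 in 5/6 Nx-HPi-Lp, 251 to 504 in 5/6 Nx-HPi-Hp, 159 to 291 in 5/6 Nx-LPi-Lp and 163 to 250 in Sham, and none of the 10 was at 0 in any library. In 5/6 Nx-HPi-Lp 10 of 10 were called higher against Sham, 9 against 5/6 Nx-HPi-Hp and 10 against 5/6 Nx-LPi-Lp, with median log2 fold changes of 2.42, 1.59 and 2.33. The 9 became 2 to 6 when 1 library was left out, except without 5/6 Nx-HPi-Lp replicate 1, where it was 10. It was 3 when replicate 2 or 3 of 5/6 Nx-HPi-Lp or replicate 3 of 5/6 Nx-HPi-Hp was left out, 2 when replicate 2 of 5/6 Nx-HPi-Hp was, and 4, 5 and 6 for replicate 4 of the first group and replicates 4 and 1 of the second. Within the 5/6 Nx-HPi-Lp group the sum was 3.62 times higher in replicate 2 than in replicate 1, and 17 members followed the order of the sum over the 4 mice. The summed FPKM of the fibroblast markers Pdgfra, Dcn, Lum, Col1a1 and Pi16 ranked these 4 mice in the same order, at 505, 2088, 921 and 856, and was 183 to 469 in all other mice. Of these 5 markers, 2 were called higher in 5/6 Nx-HPi-Lp against Sham, 4 against 5/6 Nx-HPi-Hp (2 without replicate 2, 3 or 4 of 5/6 Nx-HPi-Lp or replicate 1, 2 or 3 of 5/6 Nx-HPi-Hp) and 4 against 5/6 Nx-LPi-Lp. The part of fibroblasts in the members' differences was not tested. In whole aorta, more cells of a type and more RNA per cell cannot be told apart.

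Set against that sum, the raised members did not keep 1 ratio. Ctss was 6.79% to 8.75% of the macrophage sum in 5/6 Nx-HPi-Lp, 2.02% to 2.87% in 5/6 Nx-HPi-Hp, 2.76% to 3.82% in 5/6 Nx-LPi-Lp and 2.75% to 3.11% in Sham, so this group lay apart. Laptm5 was 2.90% to 3.59% of it in 5/6 Nx-HPi-Lp, 2.95% to 3.43% in 5/6 Nx-HPi-Hp, 2.58% to 4.23% in 5/6 Nx-LPi-Lp and 2.24% to 3.31% in Sham, with all groups overlapping. Ctsc was 1.35% to 1.91% of it in 5/6 Nx-HPi-Lp, 1.25% to 2.50% in 5/6 Nx-HPi-Hp, 1.99% to 3.83% in 5/6 Nx-LPi-Lp and 3.52% to 4.67% in Sham. Ctsl was 4.32% to 6.44% of it in 5/6 Nx-HPi-Lp, 3.64% to 6.39% in 5/6 Nx-HPi-Hp, 5.79% to 10.8% in 5/6 Nx-LPi-Lp and 12.4% to 16.2% in Sham. For Ctsl every nephrectomised group was thus below Sham and overlapped 5/6 Nx-HPi-Lp, and for Ctsc the shares of 5/6 Nx-HPi-Lp lay within the range of 5/6 Nx-HPi-Hp. Napsa was 0.204% to 0.339% in 5/6 Nx-HPi-Lp, 0.0676% to 0.210% in 5/6 Nx-HPi-Hp, 0.126% to 0.305% in 5/6 Nx-LPi-Lp and 0.106% to 0.161% in Sham, overlapping both other diets. These ratios are descriptions without a test, and the part of macrophage number in each member's difference was not tested.

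**Figure D4:**
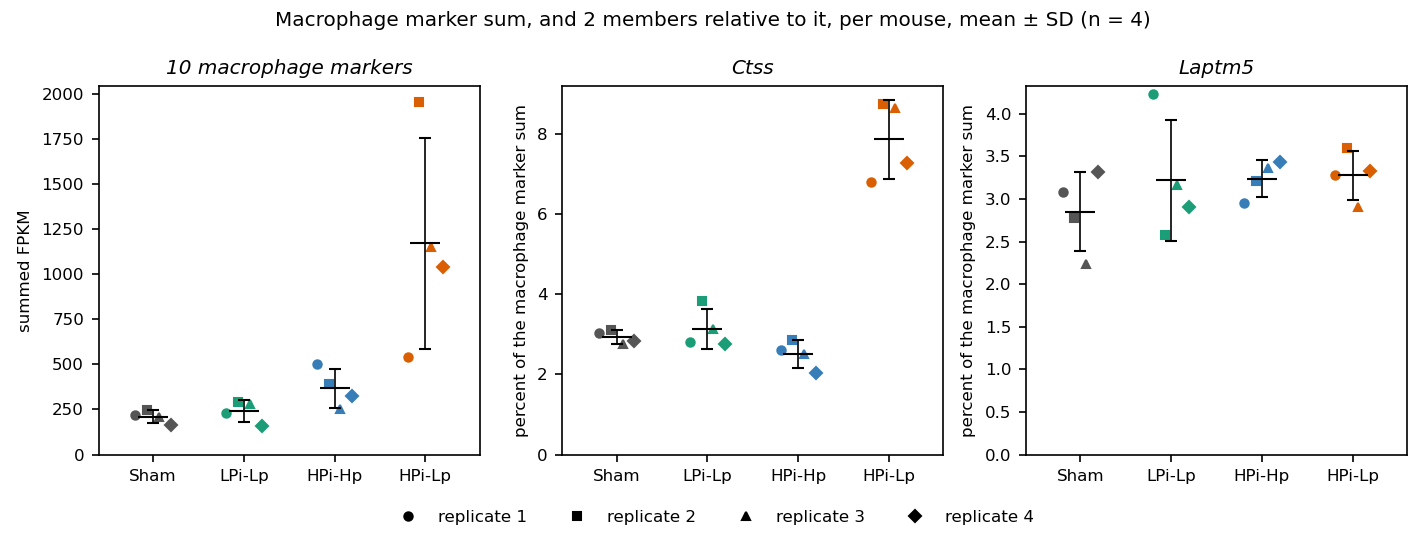
The summed FPKM of 10 macrophage markers and the levels of Ctss and Laptm5 as a percent of that sum, per mouse and by group on the x axis, with marker shapes for replicates 1 to 4 and bars for the group mean and SD (n = 4). Ctss stands at 6.79% to 8.75% of the sum in 5/6 Nx-HPi-Lp and at most 3.82% elsewhere, while the Laptm5 shares of all groups overlap.

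Smooth muscle markers, which define the tissue, were present in every group but ranged widely. The sum of Myh11, Acta2, Tagln, Cnn1, Lmod1 and Smtn was 847 to 1955 FPKM in 5/6 Nx-HPi-Lp, 2185 to 8730 in 5/6 Nx-HPi-Hp, 2731 to 6554 in 5/6 Nx-LPi-Lp and 7876 to 9926 in Sham. In 5/6 Nx-HPi-Lp 6 of 6 were called lower against Sham, 5 against 5/6 Nx-HPi-Hp and 6 against 5/6 Nx-LPi-Lp, and the 5 became 1 without 5/6 Nx-HPi-Lp replicate 4. Library totals ran from 13659525 to 57276915 counts, and mitochondrially encoded genes took 4.18% to 6.34% of the counts in Sham but 9.5% to 29.0% in the nephrectomised groups. The adipocyte sum averaged 1176 FPKM in 5/6 Nx-HPi-Lp, 1150 in 5/6 Nx-HPi-Hp and 1175 in 5/6 Nx-LPi-Lp, against 222 in Sham. This difference was part of every comparison with Sham. The part of these shifts in the members' differences was not tested.

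Beyond the 32 members, other lysosomal genes were taken by list. Of 19 V-ATPase subunits, 18 were tested, and 3, 2 and 3 were called higher in 5/6 Nx-HPi-Lp against, in turn, Sham, the HPi-Hp diet and the LPi-Lp diet, with none of the 18 called lower. Of all genes tested, 15.0%, 5.01% and 7.90% were called higher there, so the count against Sham was near the background. The list medians were 0.21, 0.40 and 0.12 on the log2 scale. Atp6v0d2, the d2 subunit typical of osteoclasts and macrophages, was at 1.43, 3.30, 1.51 and 2.58 FPKM in 5/6 Nx-HPi-Lp and between 0 and 0.298 in all other mice. Its log2 fold changes were 4.49 (SE 0.519, adjusted p = 0.000153), 4.63 (SE 0.669, adjusted p = 0.00488) and 3.88 (SE 0.615, adjusted p = 0.00416), values that depend on the few counts of the low groups. Tcirg1, the a3 subunit, and Atp6v1b2 were called with it against Sham (1.74 and 1.61). Atp6v1b2 was also called against 5/6 Nx-HPi-Hp (1.22) and both against 5/6 Nx-LPi-Lp (1.00 and 1.07).

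Of 26 other lysosomal hydrolases and membrane proteins, 7 were called higher and 0 lower against Sham, 4 higher and 1 lower against 5/6 Nx-HPi-Hp, and 3 higher and 0 lower against 5/6 Nx-LPi-Lp. The shares of all genes called higher and lower were 15.0% and 7.18%, 5.01% and 3.11%, and 7.90% and 3.98%. The medians were 0.11, 0.27 and 0.43, the first of which was -0.03 with counts scaled by library total, where 5 were called. Ctsk, the collagen-degrading cathepsin K, was at 36.4, 139, 49.7 and 63.4 FPKM in 5/6 Nx-HPi-Lp and at 6.16 to 13.67 in the other 12 mice, with no overlap. Its log2 fold changes were 2.77 (SE 0.384, adjusted p = 0.000415), 2.68 (SE 0.394, adjusted p = 0.00497) and 3.29 (SE 0.412, adjusted p = 0.00191). The macrophage glycoprotein Cd68 (2.52, 1.48 and 2.02) and the asparaginyl protease Lgmn (1.52, 1.86 and 1.81) were also called in all 3 comparisons. Acp5, the tartrate-resistant acid phosphatase, behaved otherwise. It was at 32.1 to 65.3 FPKM in 5/6 Nx-HPi-Lp, 11.1 to 76.0 in 5/6 Nx-HPi-Hp, 18.2 to 44.8 in 5/6 Nx-LPi-Lp and 4.29 to 9.62 in Sham, all Sham mice being lower than all nephrectomised mice. It was called against Sham (2.88, SE 0.290, adjusted p = 7.71e-05) and not against 5/6 Nx-HPi-Hp (0.28) or 5/6 Nx-LPi-Lp (0.76). Idua, which breaks down glycosaminoglycans beside Ids, was the 1 called lower against 5/6 Nx-HPi-Hp (-1.01, SE 0.176, adjusted p = 0.00856).

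**Figure D5:**
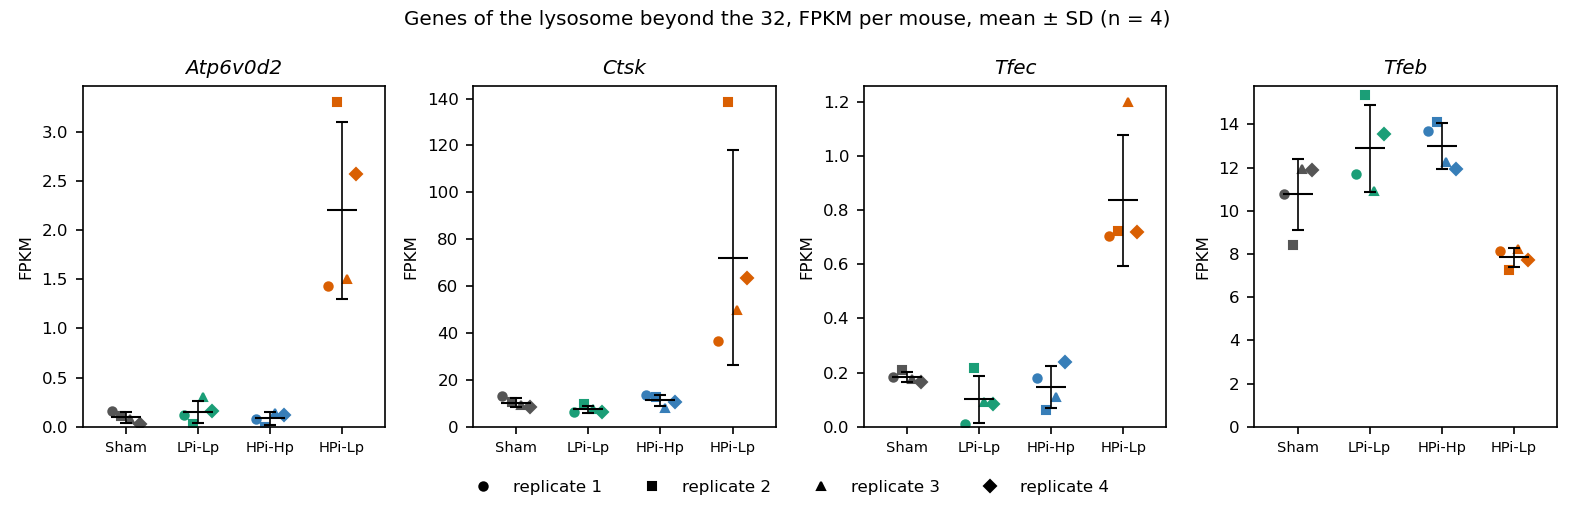
FPKM of Atp6v0d2, Ctsk, Tfec and Tfeb in each mouse, by group on the x axis, with marker shapes for replicates 1 to 4 and bars for the group mean and SD (n = 4). Atp6v0d2, Ctsk and Tfec are above all other mice in the 4 mice of 5/6 Nx-HPi-Lp (Ctsk at least 36.4 against at most 13.67 FPKM), and Tfeb is below them (at most 8.24 against at least 8.43).

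Of the 4 MiT/TFE factors, Tfec was called higher in all 3 comparisons, at 0.705 to 1.20 FPKM in 5/6 Nx-HPi-Lp and at most 0.237 elsewhere. Its log2 fold changes were 2.16 (SE 0.297, adjusted p = 0.0004), 2.47 (SE 0.484, adjusted p = 0.0134) and 3.06 (SE 0.654, adjusted p = 0.0131), and limma on log2(FPKM + 1) gave no call for this low gene. Tfeb, a main activator of lysosomal genes, fell by adjusted p alone. It was at 7.25 to 8.24 FPKM in 5/6 Nx-HPi-Lp, 11.9 to 14.1 in 5/6 Nx-HPi-Hp, 10.9 to 15.4 in 5/6 Nx-LPi-Lp and 8.43 to 11.9 in Sham. The log2 fold changes were -0.49 (SE 0.124, adjusted p = 0.0108), -0.73 (SE 0.13, adjusted p = 0.00906) and -0.72 (SE 0.132, adjusted p = 0.00743). The medians of these 4 genes were -0.12, 0.28 and 0.10.

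Of 5 cathepsin inhibitors 4 were tested, with medians of 1.03, 0.98 and 0.65. Serpinb1a, a serpin of granule proteases, was called higher against Sham (2.25) and 5/6 Nx-LPi-Lp (1.54), and Cst6 (1.41) against Sham. Cst3, the secreted cystatin C that inhibits cathepsins S and L, fell against Sham (-1.10, SE 0.136, adjusted p = 0.000223), from 1079 to 1286 FPKM in Sham to 479 to 669 in 5/6 Nx-HPi-Lp. The 6 sorting receptors and phosphotransferase subunits, which carry enzymes to the lysosome, gave 1 call, Nagpa, lower against Sham (-1.12). Of 12 autophagy genes, Map1lc3a (an LC3 protein of the autophagosome membrane) was called lower against 5/6 Nx-HPi-Hp (-1.01, SE 0.157, adjusted p = 0.00552) and 5/6 Nx-LPi-Lp (-1.07, SE 0.144, adjusted p = 0.00232), at 94.3 to 114 FPKM in 5/6 Nx-HPi-Lp and 181 to 267 elsewhere. Against Sham 4 autophagy genes fell by adjusted p alone (Map1lc3a, Sqstm1, Gabarapl1 and Map1lc3b, from -0.86 to -0.50), where 20.2% of all genes did, and the list medians were -0.25, -0.01 and -0.11.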

How the data were processed

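The authors sequenced poly-A selected RNA of whole mouse aorta, 1 library per mouse, aligned it with HISAT2 to mm10 and counted it per gene with featureCounts 1.5.0-p3, per the submitters' processing notes and the study's methods. They deposited raw read counts per gene, and the deposited FPKM values, which the authors scaled by gene length and size-factor adjusted depth. Whether counting used strand is not given in the sources used here, so reads of overlapping antisense genes cannot be told apart. No batch is given.

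Here edgeR 4.0.16 (R 4.3.3; TMM scaling, filterByExpr, quasi-likelihood test, Benjamini-Hochberg over all genes tested) was run on the deposited counts of the 8 libraries of each pair of groups. Calls needed an adjusted p no higher than 0.05 together with a log2 fold change of 1 or more in size. The standard error is the absolute log2 fold change divided by the square root of the F statistic. Levels are the deposited FPKM. Library totals were 13659525 to 57276915 counts, which sets the counting precision of low genes. The script was tested on simulated data.

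Alternatives were other scalings, DESeq2 1.42.0, limma 3.58.1 on log2(FPKM + 1) and log2(FPKM + 0.1), other count filters, all 16 libraries in 1 fit, a replicate block, mitochondrially encoded genes left out, and each library left out. Promoter windows came from RefSeq (GRCm38.p6) and were searched for exact letters. The members and gene lists were chosen with earlier results of these data known. Full values are given for up to 4 called members with the largest change in each comparison of 5/6 Nx-HPi-Lp, the most abundant member of each role, and members that passed against the direction of most. Other members with full values were singled out after their values were seen.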

Additional observations from a re-analysis of the deposited data

Results flagged for a closer look

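For each of the 32 members and 4 groups, the most extreme mouse was set against its 3 group mates. In 7 of 128 groups 1 mouse stood apart from the others by Dixon's criterion, and chance flags about 1 group in 20. In Sham, Cd63 was 87.7 FPKM in replicate 1 (the others 77.2 to 78.4) and Hexa was 87.0 in the same mouse (74.5 to 75.4). Npc1 was 4.25 in Sham replicate 2 (3.59 to 3.68) and Gusb 12.8 in that mouse (12.2 to 12.3). Npc2 was 26.8 in Sham replicate 4 (30.6 to 31.3). Ctsd was 287 in 5/6 Nx-HPi-Hp replicate 2 (349 to 361), and Sgsh was 3.62 in 5/6 Nx-LPi-Lp replicate 2 (4.69 to 4.84). No 5/6 Nx-HPi-Lp mouse met the criterion for any of the 32 members.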

How the results depend on the processing

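With no fold threshold, the called members in 5/6 Nx-HPi-Lp were 13 against Sham (5 with it) and 9 against 5/6 Nx-LPi-Lp (5 with it). They were 13 in 5/6 Nx-HPi-Hp against Sham (1 with it) and 16 in 5/6 Nx-LPi-Lp against Sham (1 with it). Genes passing in these comparisons were, in turn, 7089 of 16513, 3262 of 16253, 4990 of 15882 and 5115 of 16071. Leaving out each mouse gave 4 to 7, 4 to 7 and 5 to 5 called members for 5/6 Nx-HPi-Lp against Sham, HPi-Hp and LPi-Lp in turn. Of 16375 to 17340 genes tested, these fits called 3413 to 4087, 638 to 1558 and 1278 to 2085. The main fits called 3666, 1315 and 1931. For 5/6 Nx-HPi-Hp against Sham, leaving out each mouse gave 1 to 6 members. The 6 came without 5/6 Nx-HPi-Hp replicate 4, where 3161 of 16496 genes were called, against 1932 of 15882 in the main fit. There were 2 without Sham replicate 1, Sham replicate 2 or 5/6 Nx-HPi-Hp replicate 1. Genes called were then 1371 of 16316, 1091 of 16291 and 1592 of 16402. For 5/6 Nx-LPi-Lp against Sham it gave 0 to 2 members. There were 0 without Sham replicate 2 or 5/6 Nx-LPi-Lp replicate 1 and 2 without 5/6 Nx-LPi-Lp replicate 4. Genes called were then 1391 of 16462, 1333 of 16455 and 2233 of 16352, against 1748 of 16071 in the main fit. The member count for 5/6 Nx-HPi-Hp against Sham was 3 with total-count scaling, 2 in limma on log2(FPKM + 0.1) and 2 with a replicate block. Genes called there numbered 1864 of 15882, 1529 of 14720 and 1557 of 15882. The member count for 5/6 Nx-LPi-Lp against Sham was 2 with RLE scaling, DESeq2, no count filter or all 16 libraries. It was 0 in limma on log2(FPKM + 1). Genes called there numbered 1747 of 16071, 2099 of 19027, 1938 of 31290, 1388 of 17443 and 870 of 14619. The cause of these changes was not tested.

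Same-numbered mice did not deviate together in every pair (correlations from -0.236 to 0.471). The labels do not say what the replicate numbers stand for, so whether they mark a shared factor cannot be told. The main fits left them out. With the replicate block, called members against 5/6 Nx-HPi-Hp went from 6 to 2, and called genes from 1315 to 371 of 16198. The calls of Napsa, Laptm5, Ctsc and Lamp2 were lost (adjusted p = 0.0579, 0.0730, 0.0546 and 0.0746).

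The median log2 fold change of the members in 5/6 Nx-HPi-Lp against Sham ran from -0.0017 to 0.311 with each mouse left out, and that against 5/6 Nx-LPi-Lp from 0.111 to 0.331. Total-count scaling shifted the median of all genes by -0.14 in 5/6 Nx-HPi-Lp against Sham, -0.21 in 5/6 Nx-HPi-Hp against Sham and -0.24 in 5/6 Nx-LPi-Lp against Sham. Members passing by adjusted p alone were then 9 higher and 6 lower, 2 and 12, and 5 and 16. Genes passing there in either direction numbered 7713 of 16513, 5144 of 15882 and 6649 of 16071. In 5/6 Nx-HPi-Lp against Sham, total-count scaling gave -0.013 for Ctsd and -0.047 for Psap. Leaving out each mouse gave -0.020 to 0.294 for Ctsd and -0.035 to 0.210 for Psap. Hexa against 5/6 Nx-HPi-Hp was -0.0479 in limma on log2(FPKM + 1), -0.0491 on log2(FPKM + 0.1), -0.0480 with the replicate block and -0.234 to 0.210 with each mouse left out. Against 5/6 Nx-LPi-Lp, leaving out each mouse gave -0.123 to 0.115 for Lamp1 and -0.047 to 0.226 for Psap. None of these genes had passed there.

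All genes called against 5/6 Nx-HPi-Hp in 5/6 Nx-HPi-Lp numbered 1315, against 2095 in DESeq2, 783 in limma on log2(FPKM + 1), 2011 with all 16 libraries and 371 with the replicate block. Against 5/6 Nx-LPi-Lp there were 1931, 1068 in that limma fit and 1271 with the block. In the same limma fit the counts against Sham went from 3666 to 2057 in 5/6 Nx-HPi-Lp, 1932 to 878 in 5/6 Nx-HPi-Hp and 1748 to 870 in 5/6 Nx-LPi-Lp. The 11 to 691 counts of Napsa were the fewest of any member, which limits its precision.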
